A study of Mus musculus with 2 samples.

Results

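The SLC25 family holds the mitochondrial solute carriers, nuclear-encoded proteins of the inner membrane that move metabolites, nucleotides and cofactors between cytosol and matrix. Members were the probe sets annotated to exactly 1 gene whose current or older symbol starts with Slc25a and a digit, which takes in *Ucp1* and *Ucp3*. This gave 96 of 45101 probe sets and 46 of 18193 genes. The series holds 2 Affymetrix mouse arrays, which measured mRNA in primary neonatal ventricular cardiomyocytes (mNVCM) from C57BL6/J mice at postnatal day 2, 1 array for hAFS-CMHypo + Dox and 1 for Dox. hAFS-CMHypo is medium conditioned under hypoxia by human amniotic fluid-derived stem cells (hAFS), and Dox is the anthracycline doxorubicin. Cells of both conditions spent 1 h in low-serum medium and then received 1 μM Dox. Cells for the hAFS-CMHypo + Dox array were incubated with the conditioned medium for 3 h before Dox, and those for the Dox array were not. The labels give 6 h of Dox for hAFS-CMHypo + Dox and 21 h for Dox, whereas the methods give the shorter time for both. On the labels, the hours of Dox and the pre-incubation cannot be told apart. The cells are primary cultures of digested hearts, so they can hold other cell types beside cardiomyocytes. There was no array of cells without Dox, and the arrays do not show what Dox itself did to any carrier.

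Carriers of this family share a fold of paired helices around a central substrate site, which opens in turn to either side of the inner membrane. In the heart they supply ADP and phosphate to ATP synthase, return ATP to the cytosol, and feed the matrix with reducing equivalents, acylcarnitines, amino acids and cofactors. Some members bind calcium on the cytosolic side, and the mitoferrins bring in the iron for heme and iron-sulfur clusters. Dox binds cardiolipin, the lipid of the inner membrane in which the carriers sit, and can bind iron.

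The family as a whole did not stand apart from other genes on these arrays. No member was higher or lower by 2-fold, the threshold used in the study, where 0.506% of all genes were higher and 0.214% lower by 2-fold. None reached 1.5-fold either, against 2.32% of all genes higher and 1.52% lower. These shares count 1 probe set per gene. None of the 96 probe sets of the carriers reached 1.5-fold, for which no share over all probe sets is given. The log2 ratio, hAFS-CMHypo + Dox minus Dox, ran from -0.50 for *Slc25a41* to 0.53 for *Slc25a45*. The median log2 ratio was -0.0040 over the 46 carriers and 0.0058 over all genes, with 22 carriers above 0 and 24 below. Each gene is given by its brightest probe set, the one with the highest average over both arrays. The quartiles were -0.15 and 0.16 for the carriers and -0.13 and 0.15 for all genes.

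With 1 array per condition there is no error between cultures, no test and no p-value, and precision is limited by the number of arrays. A yardstick within the arrays is the spread among probe sets that report one gene, an SD of 0.20 in log2 ratio, which rests on 5166 genes and holds no variation between cultures. Past this SD, 8 carriers were higher and 8 lower on the hAFS-CMHypo + Dox array. These are 17.4% of the carriers in each direction, close to the 18.5% of all genes that were higher and the 16.3% that were lower, so the counts are not a result about the carriers. At least 1 array reached the median of all values, 5.10, for 37 of the 46 carriers, and for *Slc25a48* this was the hAFS-CMHypo + Dox array alone. For the other 9 carriers both arrays lay under that median, and 3 of these 9 were under the 25th percentile, 3.80, on both arrays, where a value is not shown to be above background.

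**Figure D1:**
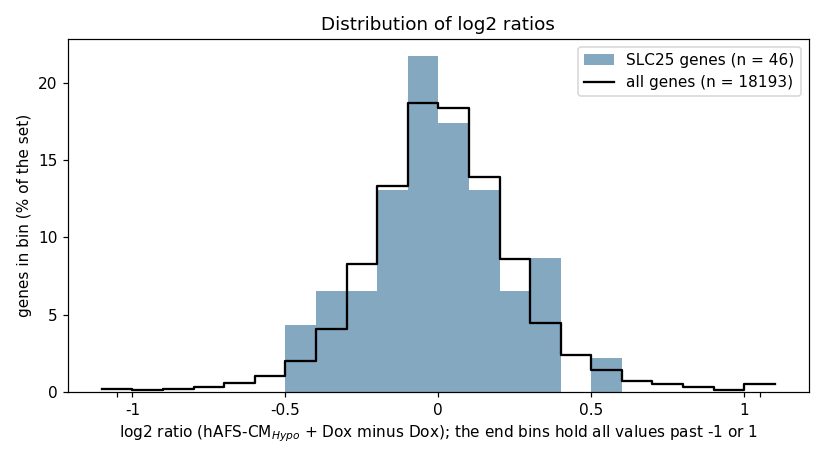
Share of genes (%, vertical axis) in bins of 0.1 of the log2 ratio, hAFS-CMHypo + Dox minus Dox, for 46 SLC25 genes (bars) and all 18193 genes (line), at its brightest probe set. The bars lie between -0.50 and 0.53 and follow the line, while 92 genes of the whole series lie at or above 1 and 39 at or below -1.

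Carriers of adenine nucleotides and phosphate hold the ATP supply route of the heart. Of the 9 measured, 1 was higher and 2 were lower past the SD (median log2 ratio -0.043). *Slc25a4*, the ADP/ATP carrier of heart and muscle, had log2 values of 14.39 on the hAFS-CMHypo + Dox array and 14.44 on the Dox array. Its 4 probe sets had log2 ratios from -0.18 to -0.04, all below 0 and within the SD. *Slc25a5*, the ADP/ATP carrier of most growing cells, had 13.89 for hAFS-CMHypo + Dox and 13.83 for Dox. Of its 8 probe sets, 6 had log2 ratios between -0.03 and 0.06, and the other 2 had -0.32 and -0.35. The gene has processed pseudogenes with near-identical sequence, and 6 of the 8 probe sets are of a type (x_at) that can bind other transcripts, so its small differences are uncertain. *Slc25a31*, the ADP/ATP carrier of male germ cells, had 3.19 for hAFS-CMHypo + Dox and 3.09 for Dox, both below the 25th percentile. *Slc25a3*, the phosphate carrier, had 13.79 on each array and a log2 ratio of -0.0016. A second probe set named for *Slc25a3* had 0.29, with low values of 3.97 for hAFS-CMHypo + Dox and 3.69 for Dox. The main ATP and phosphate carriers thus differed by less than the SD between probe sets, at the brightest probe set.

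The ATP-Mg/phosphate carriers adjust the pool of adenine nucleotides in the matrix in exchange for phosphate, and members of this subgroup lay at both ends of the family. *Slc25a23*, which is activated by calcium, had 8.15 for hAFS-CMHypo + Dox and 8.60 for Dox (log2 ratio -0.45, 0.734-fold). It is known here from 1 probe set. *Slc25a24*, its calcium-activated relative, had 9.56 for hAFS-CMHypo + Dox and 9.27 for Dox (log2 ratio 0.30), and its other probe set had 0.32. *Slc25a25*, another calcium-binding member, had 7.28 for hAFS-CMHypo + Dox and 7.48 for Dox. Its 3 probe sets gave log2 ratios from -0.23 to -0.19, near the SD. *Slc25a41*, which lacks the calcium-binding domain, had the lowest ratio of the family, -0.50, but from low values of 3.76 for hAFS-CMHypo + Dox and 4.26 for Dox. *Slc25a54*, a mouse relative of *Slc25a24*, had 3.38 for hAFS-CMHypo + Dox and 3.44 for Dox, below the 25th percentile on both arrays.

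**Figure D2:**
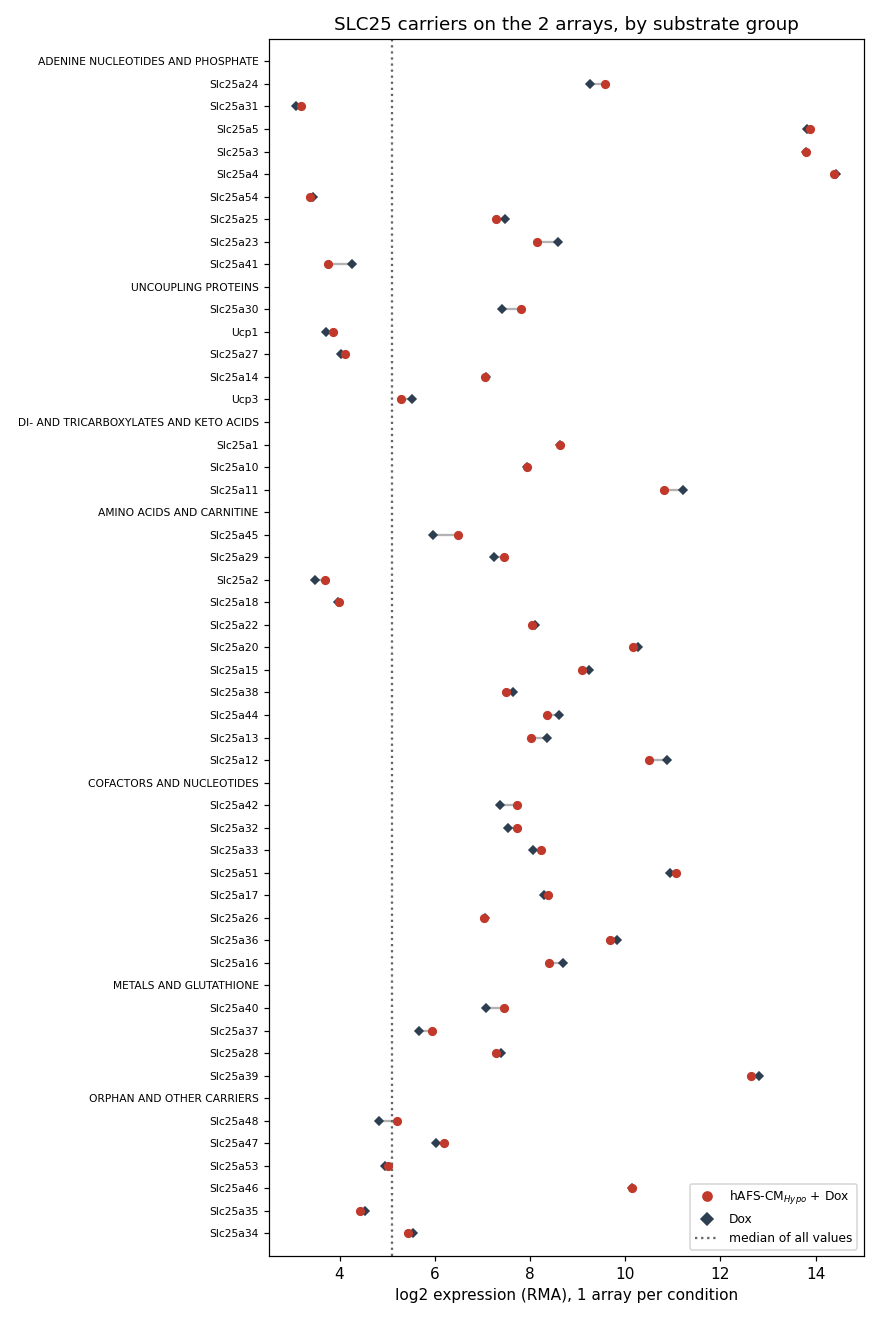
Log2 expression (RMA, horizontal axis) of the 46 SLC25 genes on the hAFS-CMHypo + Dox array (red circles) and the Dox array (dark diamonds), 1 array per condition, by substrate group and at the brightest probe set. Dots mark the level 5.10, the median of all values. The points of a gene lie at most 0.53 apart, and positions of different genes cannot be set against each other.

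The carriers of the malate-aspartate shuttle were lower on the hAFS-CMHypo + Dox array. This shuttle brings the reducing equivalents of cytosolic NADH into the matrix and is a main route for them in cardiac muscle. *Slc25a11*, which exchanges 2-oxoglutarate for malate, had 10.82 for hAFS-CMHypo + Dox and 11.20 for Dox (log2 ratio -0.39) from 1 probe set. *Slc25a12* (aralar), which exchanges aspartate for glutamate and is activated by calcium, had 10.49 for hAFS-CMHypo + Dox and 10.87 for Dox (log2 ratio -0.38.) Its other probe sets had 0.14 and -0.02 at values between 4.88 and 5.38 on both arrays, near the median of all values. With the mean of all its probe sets, *Slc25a12* had -0.09, within the SD. *Slc25a13* (citrin), the second aspartate/glutamate carrier, had 8.02 for hAFS-CMHypo + Dox and 8.36 for Dox (log2 ratio -0.34) from 1 probe set. At the brightest probe set, all 3 carriers were thus lower past the SD, as were 16.3% of all genes, and by less than 1.5-fold. They were put together after their values were seen, so their count is a description of these arrays only.

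The enzymes that complete the shuttle did not all share this direction. *Got1*, the cytosolic aspartate aminotransferase, had 12.01 for hAFS-CMHypo + Dox and 12.25 for Dox (log2 ratio -0.24.) *Got2*, the mitochondrial form, had 0.05 at the brightest probe set and -0.28 at its lowest among 4. *Mdh1*, the cytosolic malate dehydrogenase, had -0.10, with its 5 probe sets between -0.19 and 0.23, and *Mdh2*, the mitochondrial form, had -0.02. Of the 4 enzymes, *Got1* was lower past the SD and the other 3 lay within it.

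**Figure D3:**
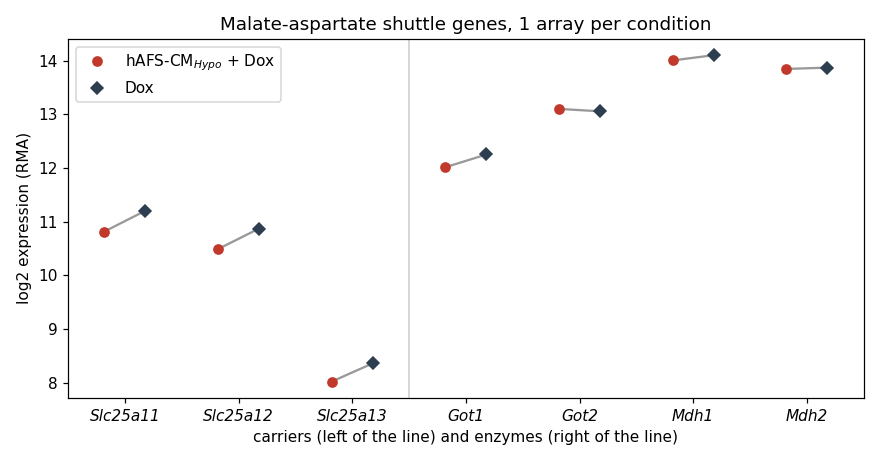
Log2 expression (RMA, vertical axis) of the 3 carriers and 4 enzymes of the malate-aspartate shuttle on the hAFS-CMHypo + Dox array (red circles, left of each pair) and the Dox array (dark diamonds, right), at the brightest probe set. The carriers differ by -0.39, -0.38 and -0.34, *Got1* by -0.24, and the other enzymes by -0.10 to 0.05.

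The sequences around the start sites of the 3 shuttle carriers are shown because all 3 genes were lower past the SD. They run from 250 bases before to 50 bases after the annotated start, on GRCm38.p6 from RefSeq, 5′ to 3′ on the gene's strand. *Slc25a11* is at chr11:70646990-70647289, *Slc25a12* at chr2:71367706-71368005 and *Slc25a13* at chr6:6217124-6217423, each on the minus strand. Capitals mark CCAAT boxes (CCAAT), the motif of NF-Y, and E-boxes (CACGTG), searched on both strands.
Slc25a11: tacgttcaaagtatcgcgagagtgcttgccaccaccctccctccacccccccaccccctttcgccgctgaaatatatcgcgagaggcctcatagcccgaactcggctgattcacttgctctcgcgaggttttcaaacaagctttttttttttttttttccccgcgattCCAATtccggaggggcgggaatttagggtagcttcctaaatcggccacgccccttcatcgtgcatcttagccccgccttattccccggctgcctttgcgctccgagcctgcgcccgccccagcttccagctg
Slc25a12: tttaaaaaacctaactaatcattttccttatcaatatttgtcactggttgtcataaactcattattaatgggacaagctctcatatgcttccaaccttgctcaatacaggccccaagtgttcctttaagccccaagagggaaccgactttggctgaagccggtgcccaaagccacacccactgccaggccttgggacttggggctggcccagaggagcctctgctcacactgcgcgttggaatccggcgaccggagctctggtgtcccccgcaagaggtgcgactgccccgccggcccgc
Slc25a13: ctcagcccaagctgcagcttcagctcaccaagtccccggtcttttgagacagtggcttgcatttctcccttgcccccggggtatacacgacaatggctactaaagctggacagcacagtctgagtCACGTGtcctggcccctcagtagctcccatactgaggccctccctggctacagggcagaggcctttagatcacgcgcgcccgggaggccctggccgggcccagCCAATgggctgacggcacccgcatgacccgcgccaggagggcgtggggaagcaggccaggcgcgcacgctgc

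The windows of *Slc25a11* and *Slc25a13* hold 1 CCAAT box each, that of *Slc25a13* also holds 1 E-box, and that of *Slc25a12* holds neither. A promoter window was given for 36 of the 46 genes, 45 windows in all. CCAAT was found in 21 of the 45 windows and in 37.4% of all 32851 windows of the same length, and CACGTG in 8 of the 45 and in 7.15% of all. AAGGTCA, the half-site of estrogen-related receptors, which contains the AGGTCA bound by many nuclear receptors, was found in 1 window, that of *Slc25a34*, and in 4.72% of all. The palindromic NRF-1 element, searched as 10 fixed letters, was found in 0 of the 45 windows and in 0.971% of all. None of the motifs occurred in all 3 shuttle carrier windows.

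The other carriers of carboxylic acids hardly differed. *Slc25a1*, which exports citrate for lipid synthesis, had a log2 ratio of 0.02, and *Slc25a10*, the dicarboxylate carrier, had 0.0019. With *Slc25a11* they made up the 3 measured members of this group, whose median was 0.0019.

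Of 11 carriers of amino acids and carnitine, 2 were higher and 3 lower past the SD (median -0.091). *Slc25a45*, related in sequence to the carriers of carnitine and basic amino acids, had the highest log2 ratio of the family, 0.53 or 1.44-fold, with 6.48 for hAFS-CMHypo + Dox and 5.95 for Dox from 1 probe set. *Slc25a29*, which carries basic amino acids, had 7.46 for hAFS-CMHypo + Dox and 7.25 for Dox (log2 ratio 0.21), with its 5 probe sets between -0.20 and 0.49. *Slc25a44*, the carrier of branched-chain amino acids, was lower, with 8.36 for hAFS-CMHypo + Dox and 8.60 for Dox. Its log2 ratio was -0.24, and -0.0039 and -0.28 at its other probe sets, so the size rests on the probe set. *Slc25a20*, the carnitine/acylcarnitine carrier through which long-chain fatty acids reach β-oxidation, had 10.17 for hAFS-CMHypo + Dox and 10.26 for Dox. Its 2 probe sets both gave -0.09, within the SD. *Slc25a12* and *Slc25a13* are the other members of this group beyond the SD. *Slc25a38*, which takes part in heme synthesis through glycine, had -0.15, and *Slc25a15*, *Slc25a22*, *Slc25a18* and *Slc25a2*, carriers of ornithine, glutamate and related amino acids, lay between -0.14 and 0.20.

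Of 8 carriers of cofactors and nucleotides, 1 was higher and 1 lower past the SD (median 0.11). Both of these genes are linked to coenzyme A in mitochondria. *Slc25a42*, which brings coenzyme A into the matrix, had 7.72 for hAFS-CMHypo + Dox and 7.36 for Dox (log2 ratio 0.36), and its weaker probe set had -0.04. *Slc25a16*, also linked to coenzyme A in mitochondria, had 8.40 for hAFS-CMHypo + Dox and 8.70 for Dox (log2 ratio -0.30) from 1 probe set. *Slc25a32*, the carrier of folate and FAD, had 7.73 for hAFS-CMHypo + Dox and 7.54 for Dox, and its 3 probe sets lay between 0.15 and 0.38. *Slc25a36*, a carrier of pyrimidine nucleotides, had 9.67 for hAFS-CMHypo + Dox and 9.83 for Dox (log2 ratio -0.16), but 0.34 at another of its 3 probe sets. At the brightest probe set, the other 4, *Slc25a33* (pyrimidine nucleotides), *Slc25a51* (NAD), *Slc25a17* (peroxisomal cofactors) and *Slc25a26* (S-adenosylmethionine), lay between -0.02 and 0.15. The weaker probe set of *Slc25a17* had 0.38, from 4.05 for hAFS-CMHypo + Dox and 3.67 for Dox, and that of *Slc25a26* had -0.16.

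**Figure D4:**
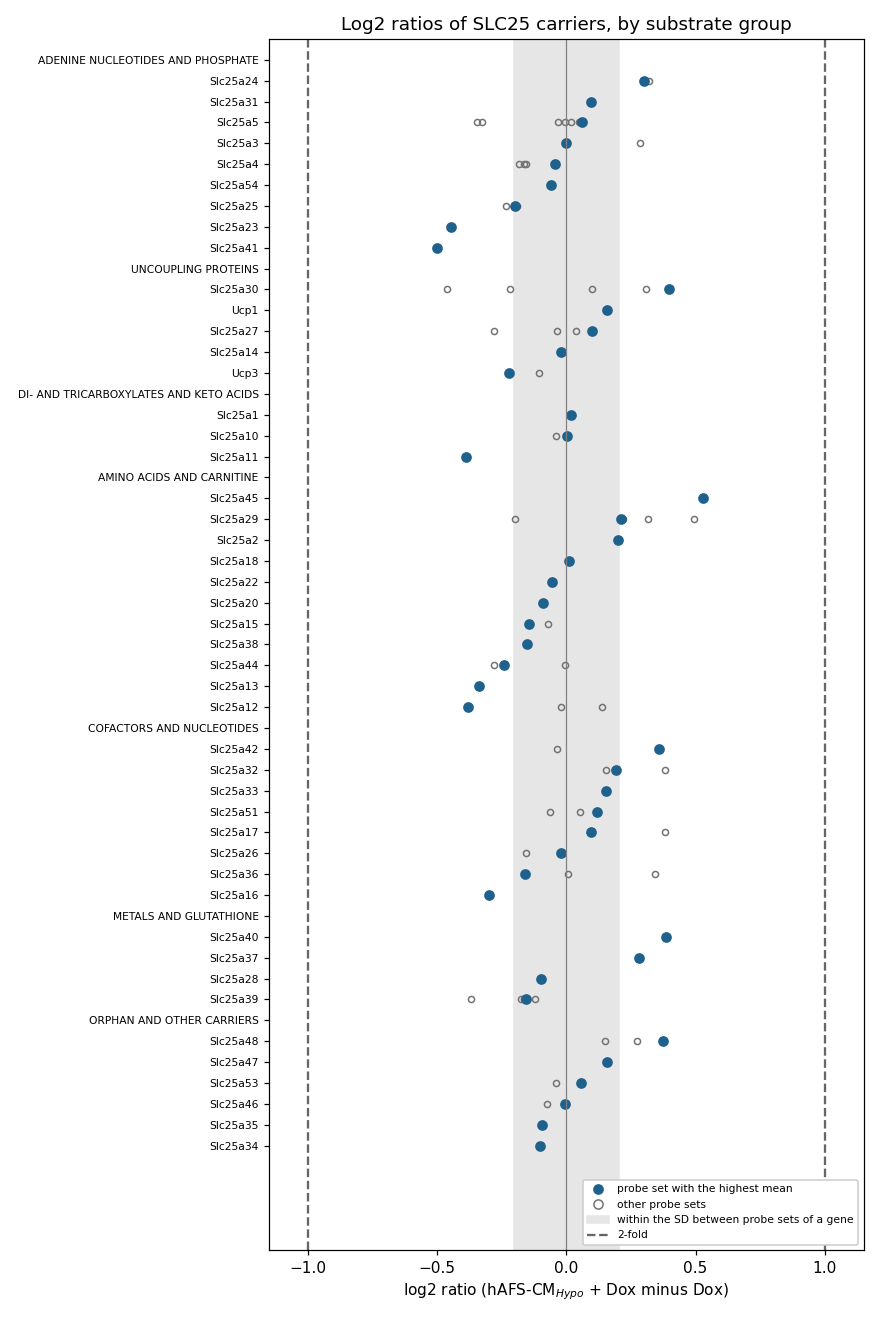
Log2 ratio (hAFS-CMHypo + Dox minus Dox, horizontal axis) of the 46 SLC25 genes by substrate group. Filled points are the brightest probe set, open points the other probe sets, the grey band is the SD between probe sets of a gene (0.20) and the dashed lines mark 2-fold; 8 filled points lie right of the band, 8 left of it, and none reaches a dashed line.

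Iron and glutathione carriers bear on the redox load of mitochondria. The mitoferrins import iron, which Dox can chelate. *Slc25a37* (mitoferrin 1), best known from red cell precursors, had 5.95 for hAFS-CMHypo + Dox and 5.66 for Dox (log2 ratio 0.28) from 1 probe set. *Slc25a28* (mitoferrin 2), the form of most other cells, had 7.30 for hAFS-CMHypo + Dox and 7.39 for Dox (log2 ratio -0.10.) Of 5 measured erythroid markers, 1 was higher and none lower past the SD (median 0.02), the 1 being *Klf1*, a red cell transcription factor, with 5.74 for hAFS-CMHypo + Dox and 5.51 for Dox. *Epor*, the erythropoietin receptor, also lay above the median of all values, with 6.65 for hAFS-CMHypo + Dox and 6.78 for Dox. *Alas2*, of red cell heme synthesis, had 4.43 for hAFS-CMHypo + Dox and 4.23 for Dox, and *Hba-a1* and *Slc4a1* had at most 3.89 on both arrays. The summed signal of these markers was 202 for hAFS-CMHypo + Dox and 201 for Dox. *Slc25a39*, the main importer of glutathione into mitochondria, had 12.64 for hAFS-CMHypo + Dox and 12.80 for Dox. Its 5 probe sets were all below 0, from -0.37 to -0.12. *Slc25a40*, its close relative, had 7.45 for hAFS-CMHypo + Dox and 7.07 for Dox (log2 ratio 0.38) from 1 probe set. The members of each of these pairs thus had ratios of opposite sign, with the one beyond the SD higher in each pair.

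Uncoupling proteins let protons back into the matrix or are named for their likeness to *Ucp1*. Of 5 measured, 1 was higher and 1 lower past the SD. Their median log2 ratio had no stable sign, with 0.097 at the brightest probe sets, -0.022 with the mean of all probe sets and -0.22 where each gene took its most divergent probe set. *Ucp1*, the heat-making protein of brown fat, had 3.86 for hAFS-CMHypo + Dox and 3.71 for Dox, near the 25th percentile of all values. *Ucp3*, the form of heart and skeletal muscle, had 5.29 for hAFS-CMHypo + Dox and 5.51 for Dox (log2 ratio -0.22), and -0.10 at its other probe set. *Slc25a30*, a relative first described in kidney, had 7.81 for hAFS-CMHypo + Dox and 7.41 for Dox (log2 ratio 0.40.) Its probe sets did not share a direction, with 0.31 and 0.10 at a pair of them and -0.46 and -0.22 at the rest. The pair had values between 7.24 and 7.55, and the rest were weaker. The -0.46 came from 5.39 for hAFS-CMHypo + Dox and 5.85 for Dox. The -0.22 came from 2.89 for hAFS-CMHypo + Dox and 3.11 for Dox, both below the 25th percentile. *Slc25a14* had -0.02 and *Slc25a27* 0.10 (-0.28 at its lowest of 4 probe sets), both named as brain forms. Among 24 carriers with several probe sets, 11 had probe sets of both signs, and none spanned more than 1 log2 unit, with the widest span, 0.86, in *Slc25a30*.

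The remaining 6 carriers have no settled substrate or act outside metabolite transport. *Slc25a48*, linked to choline import, was the only one beyond the SD, with 5.20 for hAFS-CMHypo + Dox and 4.82 for Dox. Its log2 ratio was 0.37, and all 3 of its probe sets were above 0, from 0.15. *Slc25a47*, a liver carrier, had 6.19 for hAFS-CMHypo + Dox and 6.03 for Dox (log2 ratio 0.16.) *Slc25a46*, an outer membrane protein of mitochondrial dynamics, had -0.0064, and *Slc25a34*, *Slc25a35* and *Slc25a53* lay between -0.10 and 0.06. *Ucp2*, *Slc25a21* and *Slc25a43* were not analysed here.

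Carriers with calcium-binding EF hands were compared as a set after their values were seen, so their count is a description of these arrays only. Of the 5, the shuttle carriers *Slc25a12* and *Slc25a13* and also *Slc25a23* were lower past the SD, as were 16.3% of all genes. *Slc25a24* was higher by it, as were 18.5% of all genes, and *Slc25a25* lay just within it. The 5 had a median log2 ratio of -0.34, and -0.21 with the mean of all probe sets. That mean brings in the weak probe sets of *Slc25a12*.

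Genes that work next to the carriers also lay within 1.5-fold at their brightest probe set. Of all genes, 2.32% were higher and 1.52% lower by 1.5-fold, so this is the usual case. Past the SD, 18.5% of all genes were higher and 16.3% lower. With 14 to 20 measured genes a list, the counts below are a description. Of 14 measured genes of the import route by which carriers reach the inner membrane, none was higher or lower past the SD (median -0.0082). At their lowest probe sets, *Tomm22* had -0.51, *Tomm20* -0.26 and *Tomm70a* -0.23, while no probe set of the 14 genes was higher past the SD. *Agk*, a subunit of the TIM22 translocase, had the largest log2 ratio, 0.18 at the brightest probe set and -0.10 at its lowest. *Timm8a1* with 0.14 and *Tomm40* with 0.09 followed. Of 19 transporters of mitochondria outside the family, 2 were higher and 2 lower by it (median -0.086). *Sfxn5*, a sideroflexin, had 0.38 from 5.28 for hAFS-CMHypo + Dox and 4.90 for Dox, *Vdac3*, an outer membrane channel, -0.27, and *Mrs2*, a magnesium channel, 0.24 (-0.11 at its other probe set). Of 20 partner enzymes, 1 was higher and 5 lower by it (median -0.028). *Ppif*, cyclophilin D of the permeability transition, was lowest, with 9.23 for hAFS-CMHypo + Dox and 9.58 for Dox (log2 ratio -0.36) (-0.62 at its other probe set). *Cpt2*, which acts on the acylcarnitines that *Slc25a20* brings in, had -0.32, and *Got1* -0.24. None of the genes of these 3 lists reached 2-fold, where 0.506% of all genes were higher and 0.214% lower by 2-fold.

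Markers of the cells that the culture could hold were counted by the same SD, past which 18.5% of all genes were higher and 16.3% lower. With 5 to 12 genes a list, such counts are a description, and their part in the carriers' values was not tested. Of 12 cardiomyocyte markers, none was higher and 3 were lower past the SD (median -0.13), with the largest difference in *Pln*, phospholamban, at -0.57. Their summed signal was 222476 for hAFS-CMHypo + Dox and 239462 for Dox, and all 12 lay above the median of all values. In bulk RNA, fewer cells of a type and less RNA per cell cannot be told apart. Of 7 macrophage markers, 4 were higher and none lower, with summed signals of 4763 for hAFS-CMHypo + Dox and 4781 for Dox. Most of each sum is the signal of *Lyz2*, with 11.80 for hAFS-CMHypo + Dox and 11.91 for Dox. The sums thus say little of the other macrophage markers. The 4 higher were *Cd14* at 0.80, *Ptprc* at 0.48, *Csf1r* at 0.33 and *Adgre1* at 0.33. At their lowest probe sets, *Ptprc* had -0.09 and *Csf1r* -0.14. The median log2 ratio of the 7 was 0.33 at the brightest probe sets, 0.14 with the mean of all probe sets and 0.061 without the less specific probe sets. Fibroblast markers had 2 of 8 higher and 3 lower (median -0.078, sums of 15921 for hAFS-CMHypo + Dox and 16311 for Dox). The 2 higher were *Pdgfra* at 0.79 (-0.05 at its lowest of 3 probe sets) and *Dcn* at 0.41. The 3 lower were *Tcf21*, *Postn* at -0.43 and *Col1a1* at -0.29 (0.22 at its other probe set). *Tcf21* passed 2-fold at -1.03 (0.18 at its other probe set). Endothelial markers had none of 6 higher and 1 lower (median 0.043, sums of 2233 for hAFS-CMHypo + Dox and 2161 for Dox). Of 5 brown fat markers, none was higher and 3 were lower (median -0.23, sums of 604 for hAFS-CMHypo + Dox and 799 for Dox). The third lower marker, *Ppargc1a*, is also expressed in heart, where it coactivates genes of mitochondrial metabolism. It had 6.35 for hAFS-CMHypo + Dox and 7.45 for Dox (log2 ratio -1.10), with its 5 probe sets between -1.10 and -0.41, and thus passed 2-fold, which no carrier did.

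**Figure D5:**
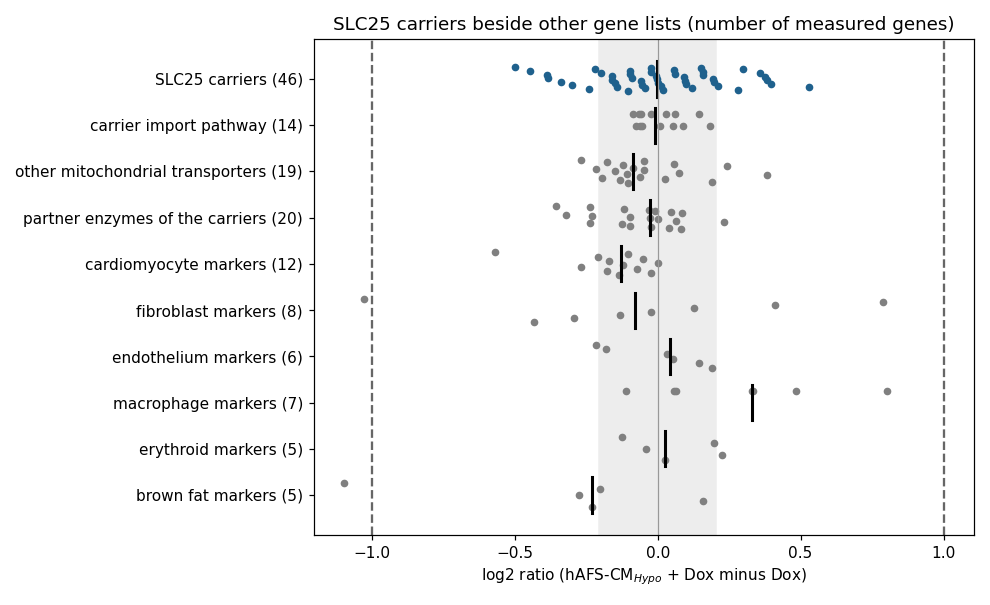
Log2 ratio (hAFS-CMHypo + Dox minus Dox, horizontal axis) of each gene of the SLC25 family (46, blue) and of 9 other lists (grey), with the number of measured genes in brackets and the vertical bar at the median. The grey band is the SD between probe sets of a gene and the dashed lines mark 2-fold; the carriers' median is -0.0040 and that of the cardiomyocyte markers -0.13. *Ucp1* is in the family and in the brown fat list.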

How the data were processed

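Gene expression in mNVCM was analysed on 1 Affymetrix mouse genome array per condition. The authors ran RMA, which includes quantile normalization, and the deposited log2 values, 1 per probe set, were used as they stand. For the software version and the probe set definitions, the sources used here give nothing. Values ran from 2.37 to 15.05, with medians of 5.10 for hAFS-CMHypo + Dox and 5.10 for Dox.

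Gene symbols came from the platform annotation and were updated through Entrez IDs with a RefSeq table on GRCm38.p6, which matched 34754 of 34958 probe sets with 1 gene and all 96 of the family. Each gene took its brightest probe set over both arrays. The log2 ratio is hAFS-CMHypo + Dox minus Dox, and the threshold was 2-fold. The SD between probe sets is the pooled SD within genes having at least 2 probe sets with a mean at or above the median of all values. The counting steps were tested on simulated data. Summed signals are sums of linear values.

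Values are given for the 10 highest and 10 lowest carriers at or above the median signal and for 13 measured carriers of heart and control interest. For the lists beside the family, up to 3 genes with the largest log2 ratios are named. The *Slc25a41* and *Slc25a54* values, the remaining shuttle enzymes, the markers named and the sets of shuttle and EF-hand carriers were added after the values were seen. Members and lists were chosen with earlier results of these data known. Alternatives were other rules for the probe set, signal filters, scalings (centring, lowess with span 0.3) and folds of 1.5 and 3. The work ran in Python 3.11.15, with lowess from statsmodels 0.14.6, tables in pandas 2.3.3, arithmetic in numpy 2.4.6 and plots in matplotlib 3.10.9.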

Additional observations from a re-analysis of the deposited data

How the results depend on the processing

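No carrier reached 2-fold under any of the 9 alternatives, thresholds of 1.5-fold and 3-fold included. The family median stayed between -0.058 and 0.0039 under the 7 others. Of 151 values of counts and medians under the alternatives, 148 were labelled as staying and 3 as moved. A median stayed if its shift was within the SD between probe sets, even with a change of sign. The fibroblast median, -0.078 at the brightest probe sets and 0.078 without the less specific ones, was thus labelled as staying. For counts the rule was also loose. With the probe set of largest change, 24 carriers past the SD in place of 16 was labelled as staying. The 148 thus say little about how stable these values are. With the probe set of largest change for each gene, which by construction picks larger ratios, 13 carriers were lower by more than the SD in place of 8, the median of the uncoupling proteins was -0.22 and *Slc25a30* changed sign to -0.46. The other moved value was the macrophage median, 0.061 without the less specific probe sets. That filter removes *Adgre1* (log2 ratio 0.33) and takes *Ptprc* from 0.48 to -0.09. Of 132 values for single carriers, 122 were labelled as staying, 9 moved and the 1 of *Slc25a30* reversed. Those labelled as staying include changes of sign, such as *Slc25a5*, 0.059 at the brightest probe set and -0.066 with the mean of all. The shuttle carriers had a median of -0.34 with the mean of all probe sets, an alternative chosen after seeing the data. No paired analysis was possible because each condition had 1 array, and for the same reason no replicate could be left out. Signal near background limits the 9 carriers below the median of all values.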

Other observations

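A probe set annotated to both *Slc25a37* and *Gm16867* was outside the comparisons, because it names 2 genes. It had log2 values of 4.48 on the hAFS-CMHypo + Dox array and 4.22 on the Dox array, a log2 ratio of 0.26.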
